A study of Mus musculus with 98 samples.

Results

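Quadriceps of mice that carry an expanded CUG repeat was compared with quadriceps of wild-type mice, both given phosphate-buffered saline (PBS) and taken at the 4-day time point. The comparison held 8 of the 98 libraries of the study, which fall into 24 groups by genotype, treatment, tissue, time and RNA fraction. Its members were every library labelled with this tissue, vehicle and time, apart from those of total or nascent RNA from a metabolic labelling experiment. There were 4 libraries from HSALR homozygous mice, in which a human skeletal actin transgene (hACTA1) carries the repeat in its last exon, and 4 from FVB/NJ mice, the wild-type strain. The transgene is driven by the human skeletal actin promoter, so the line models the repeat in skeletal muscle fibres and not in other tissues. The labels give no age, sex, line or litter for either group, so P-values measure the spread between libraries, which may be technical. That spread was estimated also from 16 quadriceps libraries of HSALR homozygous mice given EEV4-PMO, an antisense conjugate, at 15 mg/kg and taken at 1, 2, 4 and 7 days, 4 libraries each.

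Myotonic dystrophy type 1 is caused by a CTG repeat expansion in the DMPK gene, and its RNA, with the repeat read as CUG, folds into hairpins that collect in nuclear foci. The foci hold the muscleblind-like proteins (MBNL1 and MBNL2), splicing factors that bind pyrimidine-GC-pyrimidine sequences and bring about the adult choice of many exons. Loss of free MBNL returns these exons to the pattern of fetal muscle, and mis-splicing of the chloride channel Clcn1 gives the delayed relaxation known as myotonia.

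Inclusion of an exon was read as percent spliced in (PSI), the fraction from 0 to 1 of transcripts that hold it, as the authors deposited it from rMATS. The sequences below belong to the exons on which the splicing results turn and show which of them carry the core MBNL motif inside the exon. They were read from GENCODE vM21 transcripts, on the strand of the gene, and positions are those of GRCm38. The motif was searched as TGCT or TGCC or CGCT or CGCC on the transcript strand alone, overlaps counted, and is printed in capitals. The first 5 exons were more included in HSALR quadriceps. They are the exon of Clcn1 on the plus strand (chr6:42293444-42293522), of Ldb3 on the minus strand (chr14:34555343-34555528), of Nfix on the minus strand (chr8:84723728-84723850), of Mbnl1 on the plus strand (chr3:60614683-60614736) and the 39-nucleotide exon of Tnnt3 on the plus strand (chr7:142507750-142507788).
Clcn1: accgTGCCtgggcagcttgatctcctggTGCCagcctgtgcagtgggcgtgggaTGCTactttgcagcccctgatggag
Ldb3: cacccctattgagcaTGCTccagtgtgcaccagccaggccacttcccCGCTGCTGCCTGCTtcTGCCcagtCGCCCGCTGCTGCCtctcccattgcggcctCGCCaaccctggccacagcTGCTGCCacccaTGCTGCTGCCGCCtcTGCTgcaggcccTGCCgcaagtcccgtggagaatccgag
Nfix: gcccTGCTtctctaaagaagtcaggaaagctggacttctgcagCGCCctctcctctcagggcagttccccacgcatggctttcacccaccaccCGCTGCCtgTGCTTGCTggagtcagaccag
Mbnl1: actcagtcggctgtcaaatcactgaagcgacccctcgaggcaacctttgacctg
Tnnt3 39: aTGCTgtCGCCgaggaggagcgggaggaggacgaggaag
The next 5 exons were less included in HSALR quadriceps. They are the 12-nucleotide exon of Tnnt3 (chr7:142505288-142505299, plus strand), and exons of Camk2b (chr11:5987057-5987131, minus strand), Phka1 (chrX:102557096-102557272, minus strand), Ppp3cc (chr14:70225928-70225954, minus strand) and Ryr1 (chr7:29056234-29056248, minus strand).
Tnnt3 12: cccccgaaccag
Camk2b: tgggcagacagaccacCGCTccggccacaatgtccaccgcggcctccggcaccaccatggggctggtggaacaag
Phka1: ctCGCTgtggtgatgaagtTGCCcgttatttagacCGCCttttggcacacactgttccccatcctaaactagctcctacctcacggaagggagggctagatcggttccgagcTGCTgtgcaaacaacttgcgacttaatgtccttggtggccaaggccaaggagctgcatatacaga
Ppp3cc: atcactacatttcaagctgtccaaaag
Ryr1: gcaggagacgtacag
All 10 exons lie wholly in coding sequence of an annotated transcript. The Ldb3 exon held 19 motifs, a number reached by 0.0384% of tested coding exons within 10% of its length. The Nfix exon held 6, a number reached by 2.63% of exons of like length, and the Clcn1 exon held 3, reached by 10.4%. The 39-nucleotide Tnnt3 exon held 2, reached by 10.3%. Of the less included exons, that of Phka1 held 4, reached by 31.1%, and that of Camk2b held 1, reached by 59.8%. The Mbnl1, Ppp3cc and Ryr1 exons and the 12-nucleotide Tnnt3 exon held none. A match of letters is a description and not a binding site, and introns, where MBNL also binds, were not analysed here.

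The libraries were first compared as a whole. Expression is given in the authors' deposited TPM values, a level corrected for transcript length and scaled to one total, and TPM sums per library ran from 999979 to 999991. Neither table holds read counts, so the depth behind a value is unknown. FVB replicate 3 had a PSI value for 58335 events and the other 7 libraries for 67997 to 69443. Markers of skeletal muscle summed to 117240 to 155837 TPM in HSALR and to 143872 to 178698 TPM in FVB libraries. Markers of fat summed to 307 to 1634 TPM in HSALR libraries and to 799.9 to 8898 TPM in FVB libraries, where FVB replicate 1 held the most and the other 3 at most 1729.8 TPM. HSALR replicate 2 stood apart from the other 3 of its group in the transgene and in myosins, as given below. Xist and Y-linked transcripts split each group into 2 libraries of each kind. In bulk tissue, fewer cells of a type and less RNA per cell cannot be told apart.

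The transgene set the groups apart in every library. hACTA1 stood at 14912, 6979.7, 18445 and 20884 TPM in HSALR libraries 1 to 4, against 53.6, 42.1, 52.4 and 46.8 TPM in FVB libraries 1 to 4 (log2 difference 8.16 ± 0.29 SE, adjusted p = 6.67e-14). All HSALR libraries lay far above all FVB libraries, and HSALR replicate 2 was the lowest of its group. FVB mice lack the transgene, and its transcript is nearly identical to that of mouse Acta1, so the FVB values may hold reads of Acta1 and the fold change is uncertain. Mouse Acta1, the skeletal actin of adult muscle, had 53202, 51881, 54759.7 and 56687 TPM in HSALR libraries 1 to 4, against 41973, 48147, 49834 and 49550.2 TPM in FVB libraries 1 to 4. The groups did not overlap but the difference did not pass the test (log2 difference 0.19 ± 0.07 SE, adjusted p = 0.077), though it passed in a fit with no trend in the prior variance (adjusted p = 0.0344). The HSALR values of Acta1 may in turn hold reads of hACTA1, so this difference is uncertain too. Within HSALR both were lowest in replicate 2 and highest in replicate 4, and sharing of reads was not tested. Actc1, the cardiac actin that is the main actin of fetal skeletal muscle, fell in HSALR quadriceps. Its level was 75, 49, 37.3 and 71.5 TPM in HSALR libraries 1 to 4, against 1298, 1531, 1282 and 1382 TPM in FVB libraries 1 to 4 (log2 difference -4.59 ± 0.51 SE, adjusted p = 3.19e-06). Every FVB library was above every HSALR library by more than an order of magnitude, the largest fall among called genes.

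Splicing was compared with limma, a linear model fitted to all events at once, over the 24 libraries of the quadriceps time course, so that its 6 groups share an estimate of spread to which the 4 groups given EEV4-PMO contribute. A called event is one whose P, adjusted by Benjamini-Hochberg over all events, was under 0.05 and whose group means differed by 0.1 PSI or more. Of 55181 events, 248 were called (0.449%), in 113 genes. Inclusion was higher in HSALR for 133 (0.241%) and lower for 115 (0.208%), and in 245 of the 248 the groups did not overlap. Groups did not overlap in 1478 of all tested events (2.68%). Skipped exons made up 154 of the calls and mutually exclusive pairs of exons 83. Alternative 5′ splice sites gave 5, alternative 3′ sites 3 and retained introns 3. Pairs were called more often for their number, at 1.02% against 0.382% of skipped exons, though events of 1 gene share exons and are not independent. A fit of the 8 libraries alone called 65 events, and 10 of the 28 events named for their size passed in it, in Clcn1, Ldb3, Wdr59, Bpnt1, Nfix, Tnnt3, Neb, Atp2a1, Camk2b and Phka1.

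Calcium handling held some of the largest changes. Atp2a1 encodes the calcium pump of the sarcoplasmic reticulum in fast fibres, and its 42-nucleotide exon (chr7:126446545-126446586) separates the adult from the neonatal isoform. Its inclusion was 0.324, 0.552, 0.311 and 0.272 in HSALR libraries 1 to 4, against 0.997, 0.998, 0.997 and 0.999 in FVB libraries 1 to 4 (difference -0.633 ± 0.0541 SE, adjusted p = 8.61e-07). The FVB libraries were all close to complete inclusion, and every HSALR library was far lower. HSALR replicate 2 kept the exon most often of its group. Ryr1, the calcium release channel, has a 15-nucleotide exon whose inclusion in the authors' own table of 36 exons was 0.187, 0.212, 0.189 and 0.146 in HSALR libraries 1 to 4, against 0.553, 0.684, 0.562 and 0.686 in FVB libraries 1 to 4. The groups did not overlap (exact permutation test, two-sided, p = 0.0286, the smallest that 4 against 4 libraries allow). In the whole table the same exon with the same flanking exons averaged 0.015 in HSALR and 0.19 in FVB. The difference was smaller there (difference -0.175 ± 0.0331 SE, adjusted p = 0.0112), so the level of this exon is uncertain. Why the deposited values differ was not tested. An exon of Cacna2d1, a subunit of the voltage-gated calcium channel, stood at 0.87, 0.944, 0.845 and 0.831 in HSALR libraries 1 to 4, against 0.988, 0.996, 1 and 0.997 in FVB libraries 1 to 4. All FVB libraries were near full inclusion and above all HSALR libraries. No event of Cacna1s, the voltage sensor that opens the release channel, was called.

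Camk2b, a calcium-dependent kinase of muscle, lost 3 exons, with all 3 called events lower in HSALR. Its 75-nucleotide exon was included at 0.312, 0.308, 0.25 and 0.206 in HSALR libraries 1 to 4, against 0.872, 0.821, 0.877 and 0.945 in FVB libraries 1 to 4 (difference -0.61 ± 0.0344 SE, adjusted p = 1.79e-09). The groups lay far apart. Its 129-nucleotide exon averaged 0.126 ± 0.0537 in HSALR and 0.483 ± 0.0546 in FVB (SD, n = 4). Its 114-nucleotide exon averaged 0.11 ± 0.05 in HSALR and 0.432 ± 0.0716 in FVB (SD, n = 4). Ppp3cc is a catalytic subunit of the phosphatase calcineurin, which calcium also activates. A 27-nucleotide exon of it stood at 0.24, 0.393, 0.286 and 0.242 in HSALR libraries 1 to 4, against 0.747, 0.723, 1 and 0.82 in FVB libraries 1 to 4 (difference -0.532 ± 0.079 SE, adjusted p = 0.00103). Again no HSALR library reached the lowest FVB library. Phka1, the regulatory subunit of the kinase that starts glycogen breakdown in muscle, had the smallest standard error of the 28 events named for their size. Its 177-nucleotide exon was included at 0.142, 0.117, 0.113 and 0.114 in HSALR libraries 1 to 4, against 0.685, 0.683, 0.657 and 0.663 in FVB libraries 1 to 4 (difference -0.55 ± 0.0157 SE, adjusted p = 1.02e-13). Libraries of a group were close to each other, HSALR replicate 2 included.

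Excitability was represented by Clcn1, the chloride channel that stabilises the resting fibre. Its 79-nucleotide exon shifts the reading frame. Inclusion was 0.876, 0.777, 0.79 and 0.828 in HSALR libraries 1 to 4, against 0.195, 0.157, 0 and 0.069 in FVB libraries 1 to 4 (difference 0.713 ± 0.0854 SE, adjusted p = 8.06e-05), with all HSALR libraries well above all FVB libraries. Measured against the flanking exons of the authors' table, this exon gave 0.33, 0.246, 0.323 and 0.361 in HSALR libraries 1 to 4, against 0.042, 0.036, 0.047 and 0.033 in FVB libraries 1 to 4. The groups were apart there too, at lower levels than with the other flanks. Clcn1 RNA was lower in the same libraries. Its level was 70.3, 64.3, 66.2 and 60.6 TPM in HSALR libraries 1 to 4, against 105, 134, 114 and 129.9 TPM in FVB libraries 1 to 4 (log2 difference -0.87 ± 0.12 SE, adjusted p = 5.08e-05), with no overlap.

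Among proteins of the contractile apparatus, Tnnt3, fast troponin T, showed the largest difference of any called event. Its 12-nucleotide and 39-nucleotide exons form a mutually exclusive pair, where the PSI is the share of the 12-nucleotide exon. That share was 0.053, 0.08, 0.037 and 0.04 in HSALR libraries 1 to 4, against 0.982, 0.982, 0.934 and 0.984 in FVB libraries 1 to 4 (difference -0.918 ± 0.0345 SE, adjusted p = 3.07e-12). The groups nearly exchanged one exon for the other. The 39-nucleotide exon scored as a skipped exon gave the mirror image, at 0.936, 0.911, 0.948 and 0.95 in HSALR libraries 1 to 4, against 0.013, 0.014, 0.051 and 0.012 in FVB libraries 1 to 4 (difference 0.914 ± 0.0369 SE, adjusted p = 9.55e-12). A 15-nucleotide exon of Tnnt3 (chr7:142505516-142505530) also rose as a skipped exon, and averaged 0.678 ± 0.0876 in HSALR and 0.191 ± 0.0396 in FVB (SD, n = 4; difference 0.487 ± 0.0577 SE, adjusted p = 6.94e-05). Of 40 tested Tnnt3 events, 13 were called.

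The giant proteins of the sarcomere changed exon by exon, in both directions. Nebulin (Neb), which runs along the thin filament, had 35 called events of 532 tested, over 14 exons. Its 105-nucleotide exon (chr2:52161371-52161475) was nearly constitutive in HSALR, at 0.98, 0.992, 0.982 and 0.983 in HSALR libraries 1 to 4, against 0.456, 0.492, 0.631 and 0.373 in FVB libraries 1 to 4 (difference 0.496 ± 0.0333 SE, adjusted p = 2.28e-08). The FVB libraries held it in roughly equal parts with the shorter form. A 93-nucleotide exon (chr2:52151364-52151456) moved the other way, at 0.432 ± 0.0731 in HSALR and 0.919 ± 0.0167 in FVB (SD, n = 4; difference -0.486 ± 0.0374 SE, adjusted p = 1.66e-07). A mutually exclusive pair of Neb exons also switched. The share of the exon that comes first in the transcript was 0.102, 0.018, 0.098 and 0.113 in HSALR libraries 1 to 4, against 0.745, 0.719, 0.548 and 0.868 in FVB libraries 1 to 4 (difference -0.637 ± 0.0685 SE, adjusted p = 1.88e-05), and HSALR replicate 2 was the lowest, farthest from FVB. Titin (Ttn), the elastic filament of the sarcomere, had 17 called events of 1961 tested. Its 96-nucleotide exon (chr2:76826447-76826542) stood at 0.543, 0.133, 0.277 and 0.238 in HSALR libraries 1 to 4, against 1, 1, 1 and 1 in FVB libraries 1 to 4 (difference -0.702 ± 0.0954 SE, adjusted p = 0.000375). The FVB libraries all included it fully, and HSALR replicate 1 was the highest of its group. Its 303-nucleotide exon (chr2:76705670-76705972) rose, at 0.962, 0.959, 0.973 and 0.961 in HSALR libraries 1 to 4, against 0.478, 0.501, 0.591 and 0.45 in FVB libraries 1 to 4 (difference 0.459 ± 0.0265 SE, adjusted p = 2.42e-09). A pair of 138-nucleotide exons of the spring region of the gene also rose. The first averaged 0.586 ± 0.04 in HSALR and 0.151 ± 0.0543 in FVB and the second averaged 0.534 ± 0.0516 in HSALR and 0.103 ± 0.0501 in FVB (SD, n = 4 each). Reads of such repeated domains may be shared between exons, which was not tested.

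At the Z-disc, Ldb3 (also called ZASP or Cypher) gained a 186-nucleotide exon, at 0.782, 0.583, 0.791 and 0.781 in HSALR libraries 1 to 4, against 0.051, 0.058, 0.075 and 0.026 in FVB libraries 1 to 4 (difference 0.682 ± 0.0718 SE, adjusted p = 1.46e-05). HSALR replicate 2 was the lowest HSALR library but still far above FVB.

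Splicing factors were among the genes with called exons. All 6 called Mbnl1 events were more included in HSALR. Its 54-nucleotide exon, known to hold MBNL1 in the nucleus, stood at 0.725, 0.587, 0.734 and 0.768 in HSALR libraries 1 to 4, against 0.282, 0.194, 0.039 and 0.215 in FVB libraries 1 to 4 (difference 0.521 ± 0.063 SE, adjusted p = 8.91e-05). No library of one group reached the other, and FVB replicate 3 was the lowest. Against the flanking exons of the authors' table the exon stood lower, at 0.423, 0.267, 0.436 and 0.462 in HSALR libraries 1 to 4. The FVB libraries 1 to 4 had 0.089, 0.08, 0.02 and 0.073 there, again without overlap, so the level depends on the flanks used. The 223-nucleotide exon upstream (chr3:60528756-60528978) averaged 0.803 ± 0.0227 in HSALR and 0.357 ± 0.0381 in FVB (SD, n = 4; difference 0.447 ± 0.042 SE, adjusted p = 3.08e-06). Mbnl2 gained its own 54-nucleotide exon (chr14:120395712-120395765), which averaged 0.28 ± 0.0735 in HSALR and 0.0912 ± 0.0398 in FVB (SD, n = 4; difference 0.189 ± 0.0325 SE, adjusted p = 0.00458), and its 95-nucleotide exon, which averaged 0.248 ± 0.0539 in HSALR and 0.0995 ± 0.0296 in FVB (SD, n = 4). RNA levels of these genes did not pass the test. Mbnl1 averaged 308 ± 32.1 TPM in HSALR and 298 ± 24.4 TPM in FVB quadriceps (adjusted p = 0.784) and Mbnl2 173 ± 23.4 TPM in HSALR and 169 ± 14.5 TPM in FVB quadriceps (adjusted p = 0.906; SD, n = 4 each). Nfix, a transcription factor that turns on fetal muscle genes, had a 123-nucleotide exon at 0.659, 0.547, 0.648 and 0.712 in HSALR libraries 1 to 4, against 0.261, 0.279, 0.293 and 0.225 in FVB libraries 1 to 4 (difference 0.377 ± 0.0384 SE, adjusted p = 9.16e-06). The groups were clearly apart, with HSALR replicate 2 the closest to FVB. Cpeb2, a regulator of translation, gained a 24-nucleotide exon, at 0.936, 0.834, 0.874 and 0.857 in HSALR libraries 1 to 4, against 0.391, 0.275, 0.446 and 0.04 in FVB libraries 1 to 4 (difference 0.587 ± 0.0895 SE, adjusted p = 0.00138). FVB replicate 4 was well below the other FVB libraries, and all of these were below HSALR.

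Other large changes included exons of signalling and trafficking genes. Inclusion rose for exons of Wdr59, a part of the complex that senses nutrients for mTORC1 (0.731 ± 0.0549 in HSALR and 0.14 ± 0.111 in FVB), Socs7, an inhibitor of cytokine signalling (0.768 ± 0.176 in HSALR and 0.247 ± 0.0432 in FVB), and Clasp1, which stabilises microtubules (0.552 ± 0.116 in HSALR and 0.208 ± 0.058 in FVB; SD, n = 4 each). Inclusion fell for exons of Lrrfip2 (0.436 ± 0.14 in HSALR and 0.95 ± 0.0595 in FVB), Rapgef1, an exchange factor of the Rap GTPases (0.184 ± 0.0471 in HSALR and 0.595 ± 0.119 in FVB), Mllt1, a reader of acetylated histones (0.33 ± 0.097 in HSALR and 0.772 ± 0.11 in FVB), Cog1, of the Golgi tethering complex (0.401 ± 0.119 in HSALR and 0.826 ± 0.0757 in FVB), and at a 5′ splice site of Tacc2 (0.549 ± 0.0935 in HSALR and 0.946 ± 0.0432 in FVB; SD, n = 4 each). Adjusted p-values of these 8 events in limma ran from 0.000452 to 0.0062. Their groups did not overlap, which was a condition for naming them. In the 8 libraries alone only Wdr59 passed in limma (adjusted p = 0.0346). The others ranged there from 0.0838 for Tacc2 to 0.246 for Clasp1. The tau gene Mapt, a microtubule protein better known from neurons, had 4 called events, all lower in HSALR. Meg3, a long non-coding RNA of the imprinted region described below, switched a mutually exclusive pair of exons. The share of the first was 0.864, 0.864, 0.927 and 0.857 in HSALR libraries 1 to 4, against 0, 0.019, 0 and 0.39 in FVB libraries 1 to 4 (difference 0.776 ± 0.0754 SE, adjusted p = 4.72e-06), where FVB replicate 4 stood apart from the other 3.

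Some of the 28 events named for their size did not hold without single libraries. The 112-nucleotide exon of 4833439L19Rik averaged 0.782 ± 0.0455 in HSALR and 0.315 ± 0.172 in FVB (SD, n = 4; difference 0.467 ± 0.0652 SE, adjusted p = 0.000514) and held in each such fit. A 45-nucleotide exon of Bpnt1, a phosphatase of nucleotide metabolism, averaged 0.905 ± 0.059 in HSALR and 0.438 ± 0.0542 in FVB (SD, n = 4; difference 0.468 ± 0.0898 SE, adjusted p = 0.0124) and lost its call without HSALR replicate 3 or FVB replicate 2 (adjusted p 0.0541 and 0.0501). For exons of Pacsin3, Pard3, Pkm, Cops4 and Mtg2 the call ended without 6, 6, 7, 7 and 7 of the 8 libraries in turn. Without those libraries the adjusted p was 0.0904 to 0.131 for Pacsin3 (all but HSALR replicate 2 and FVB replicate 1), 0.0523 to 0.125 for Pard3 (all but FVB replicates 1 and 2) and 0.0749 to 0.131 for Pkm (all but FVB replicate 1). It was 0.0572 to 0.107 for Cops4 (all but FVB replicate 2) and 0.0701 to 0.12 for Mtg2 (all but FVB replicate 4). The exon of Pkm, a pyruvate kinase of glycolysis, averaged 0.858 ± 0.0326 in HSALR and 0.439 ± 0.183 in FVB. That of Pacsin3, which shapes membranes, averaged 0.691 ± 0.187 in HSALR and 0.251 ± 0.0731 in FVB, and that of Pard3, a protein of cell polarity, 0.19 ± 0.116 in HSALR and 0.63 ± 0.266 in FVB. The exon of Cops4, of the COP9 signalosome, averaged 0.0655 ± 0.0532 in HSALR and 0.754 ± 0.173 in FVB, and that of Mtg2, a GTPase of mitochondrial ribosomes, 0.51 ± 0.0214 in HSALR and 0.891 ± 0.144 in FVB (SD, n = 4 each).

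**Figure D1:**
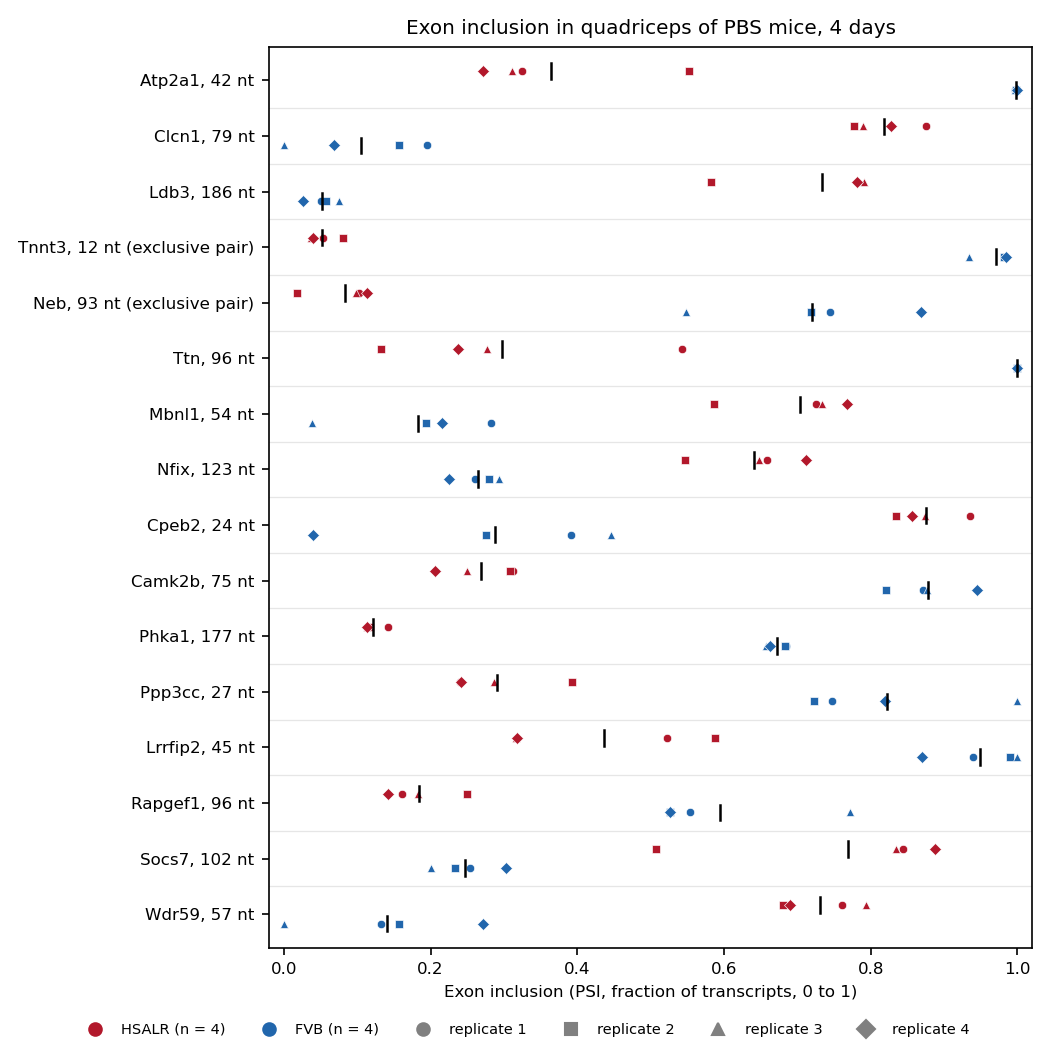
Inclusion (PSI, horizontal axis) of 16 exons or exclusive pairs in each of the 4 HSALR (red, upper line of a row) and 4 FVB (blue, lower line) quadriceps libraries. Black bars are group means and marker shapes are replicate numbers. Rows were picked from called events whose groups do not overlap. HSALR replicate 2 (red square) lies closest to FVB in rows such as Atp2a1 (0.552), Ldb3 (0.583) and Socs7 (0.507).

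The plot of exon inclusion by library shows rows picked from the largest rises and falls among called events without overlap. Gaps between groups were wide against the spread within them for Tnnt3, Phka1 and Camk2b and narrower for Lrrfip2 and Cpeb2, where single libraries lay far from their group mean. The lack of overlap and the mix of rises and falls in the plot come from that choice of rows.

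Short exons, and exons that keep the reading frame, made up more of the called than of the tested exons, as shares given with no test. Of 31266 distinct skipped exons tested, 137 were called (0.438%). A length divisible by 3, which keeps the reading frame, was found in 75.2% of called and 43.6% of tested exons. Exons of at most 30 nucleotides were called in 12 of 458 cases (2.62%), those of 31 to 300 nucleotides in 0.391% and longer ones in 0.72%. The 12, 24, 27 and 15 nucleotides of the Tnnt3, Cpeb2 and Clasp1, Ppp3cc and Ryr1 exons are examples of such short exons. Among called exons wholly in coding sequence, the 55 that were higher in HSALR held 2.63 MBNL core motifs per 100 bases, the 49 that were lower 1.35, and all 26144 tested coding exons 1.5. At least 1 motif was found in 70.9% of the higher, 53.1% of the lower and 74.4% of all tested coding exons. Their median lengths were 93, 81 and 115 bases. The share with a motif was thus not higher in risen than in tested exons, but risen exons were shorter and their density of motifs was higher. Exons of 1 gene are not independent and the 19 motifs of Ldb3 are part of the first density, so these densities and shares are descriptions with no test.

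The authors' table of 36 exons gives a second set of PSI values for the same libraries. For 29 of its exons the whole table holds an event with the same flanking exons, so it is no independent reading. Of the 35 exons with a value in all 8 libraries, 26 did not overlap between groups, 11 higher and 15 lower in HSALR, each at the smallest exact permutation p of 0.0286 (two-sided, adjusted 0.0385 over the exons). Since the authors chose these exons, the count is a description of their table. Of the 29 exons present in the whole table with the same flanks, 27 were tested and 19 were called. The exon of Map3k4, a kinase of stress signalling, carried 16 core motifs and stood at 0.302, 0.392, 0.412 and 0.439 in HSALR libraries 1 to 4, against 0.157, 0.158, 0.157 and 0.089 in FVB libraries 1 to 4. Among others without overlap were Trim55, a ring finger protein of the sarcomere, at 0.661, 0.869, 0.624 and 0.589 in HSALR libraries 1 to 4, against 0.936, 0.976, 0.928 and 0.965 in FVB libraries 1 to 4, and Fbxo31, a part of a ubiquitin ligase, at 0.462, 0.599, 0.366 and 0.374 in HSALR libraries 1 to 4, against 0.809, 0.783, 0.786 and 0.859 in FVB libraries 1 to 4. Eya4, a cofactor of muscle transcription, stood at 0.271, 0.505, 0.235 and 0.342 in HSALR libraries 1 to 4, against 0.677, 0.806, 0.52 and 0.707 in FVB libraries 1 to 4, and Mpdz, a scaffold of cell junctions, at 0.552, 0.407, 0.602 and 0.677 in HSALR libraries 1 to 4, against 0.258, 0.248, 0.175 and 0.221 in FVB libraries 1 to 4. The exons of Abcc9 and Kif13a overlapped between groups in this table but not in the whole table (exact permutation p = 0.0286 each), where the difference was 0.134 for Abcc9 (limma adjusted p = 0.582) and -0.203 for Kif13a (limma adjusted p = 0.0313, called). Exons of Best3, Brd2, Fn1, Jag2, Phactr4, Tnik and Vps39 overlapped between groups in the authors' table. The Fn1 exon averaged 0.081 ± 0.0121 in HSALR and 0.0813 ± 0.00974 in FVB (SD, n = 4; p = 1, exact permutation test), so no difference was detected there.

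HSALR replicate 2 lay nearer to FVB than the other HSALR libraries at many exons. Taking the largest called event of each gene, it was the HSALR library closest to FVB in 61 of 111 genes (55%), and the other 3 were closest in 18, 12 and 20 genes. In the authors' table it was the closest in 22 of 25 exons without overlap (88%). Its median position was 79.7% of the difference that the other 3 HSALR libraries showed from FVB. The same library held 6979.7 TPM of hACTA1, the least of its group, and its fibre type RNA differed as well, with 6455 TPM of Myh4 against 15883 to 19119 TPM in the other 3 HSALR libraries. Their part in the exon levels was not tested. Without this library 268 events were called, 143 of them higher in HSALR.

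**Figure D2:**
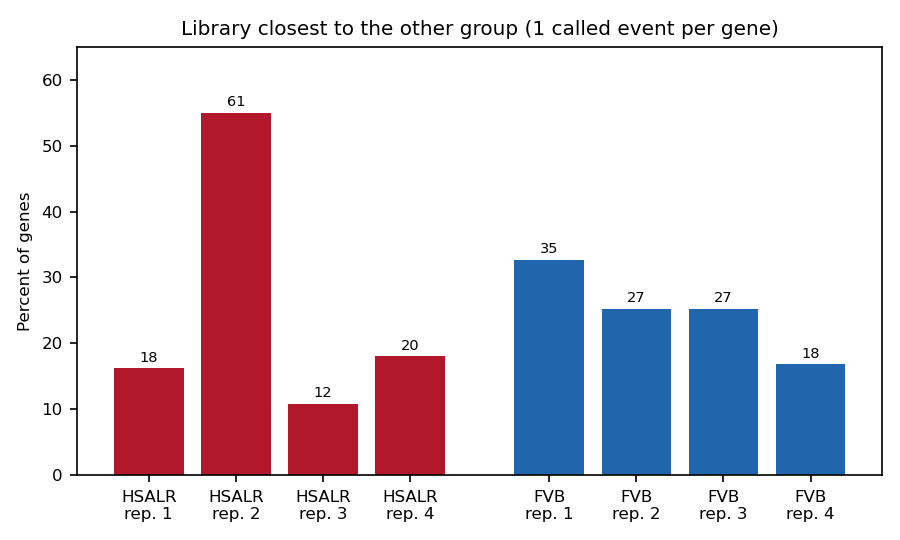
Share of genes (percent, vertical axis) in which each library was the one of its group closest to the other group, over the largest called event of each gene; numbers above bars are genes. HSALR replicate 2 was closest in 61 of 111 genes, and the FVB libraries ranged from 18 to 35 of 107.

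Gastrocnemius of the same 2 genotypes at 4 days gave the closest comparison in the study. Of the 248 called quadriceps events, 246 had a value there, 243 had the same sign and 202 also differed by at least 0.1, with 0 in the opposite direction past 0.1. At 7 days, in other gastrocnemius libraries, 224 had a value, 220 had the same sign and 183 passed 0.1. The Bpnt1 exon differed little at 4 days, where it averaged 0.65 in HSALR and 0.615 in FVB gastrocnemius, and more at 7 days, where it averaged 0.852 in HSALR and 0.562 in FVB. The labels do not say whether both muscles came from the same mice. A test of the difference itself, over 16 libraries, called 0 of 55630 events (0%) in limma, where 1342 had an unadjusted p under 0.05 and 1 passed the adjusted p at a smaller difference. That event, of the kinase gene Rps6kc1, averaged 0.901 in HSALR and 1 in FVB quadriceps and 1 in both genotypes of gastrocnemius (difference of differences -0.0985 ± 0.00638 SE, adjusted p = 8.29e-05). The same test called 0 of 13651 genes (0%), with 699 at an unadjusted p under 0.05. A fit with a block for same-numbered libraries of both muscles within a genotype called 3 genes. It treats such libraries as taken from the same mouse, which is assumed. Among the genes called were the immediate early genes Egr1 (adjusted p = 0.0283, and 0.849 with no block) and Fos (adjusted p = 0.0327, and 0.849 with no block). Egr1 averaged 10.6 TPM in HSALR and 22.6 TPM in FVB quadriceps, and 18 TPM in HSALR and 11.1 TPM in FVB gastrocnemius. These genes and the Rps6kc1 event were named after their values were seen. Other settings called 0 to 2 events, so calls of a difference between the muscles depended on the fit.

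**Figure D3:**
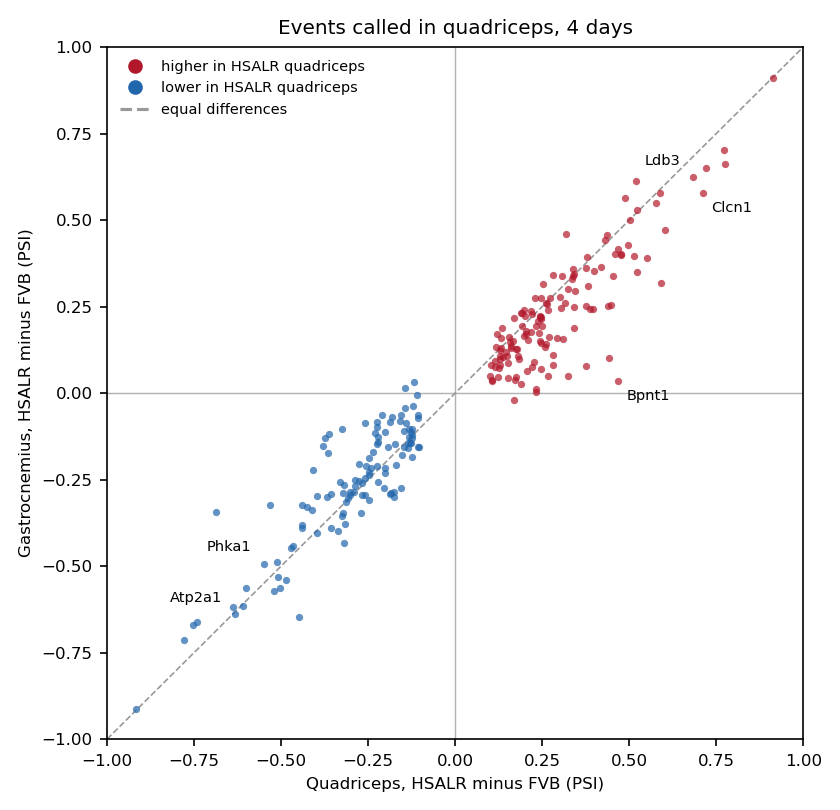
Difference in PSI, HSALR minus FVB, for 246 events called in quadriceps, in quadriceps (horizontal axis) and in gastrocnemius (vertical axis) at 4 days. Points in red are higher and points in blue lower in HSALR quadriceps; the dashed line marks equal differences, and 243 points lie in the quadrants of the same sign. Bpnt1 has a small difference on the vertical axis.

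Other HSALR quadriceps libraries with PBS gave values for the same exons. Total RNA at 4 days, isolated with another kit, had Atp2a1 exon inclusion of 0.193 to 0.344 and Phka1 inclusion of 0.131 to 0.166 over 4 libraries. At 3 months the ranges were 0.175 to 0.433 and 0.13 to 0.167. The Ldb3 exon ranged from 0.733 to 0.87 in total RNA and from 0.738 to 0.876 at 3 months. No FVB library accompanied either set, so no test was made.

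A larger share of genes than of splicing events was called, by a rule with no minimum size. Levels were tested with limma as log2 of TPM plus 1, where the mean reached 1 TPM, and 1811 of 13177 genes were called at an adjusted p under 0.05 (13.7%). Of these, 1027 were higher in HSALR (7.79%) and 784 lower (5.95%), and the median difference over all tested genes was -0.02 on the log2 scale. Groups did not overlap in 2064 genes (15.7%), 1465 of them called. A fit of the 8 libraries alone called 845 genes, 561 higher and 284 lower. Without FVB replicate 1, the library with the most fat RNA, 1213 were higher and 557 lower. Fold changes on this scale understate those of genes of low level. Lists of genes by role are given below by how many of their tested members rose or fell, with 7.79% and 5.95% over all genes. The lists were chosen with earlier results of these data known. Their shares are therefore descriptions and no test against the rate over all genes.

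Genes of load and injury rose together. Of 24 tested members of this list, 17 rose and 0 fell, with a median log2 difference of 1.38, and 16 rose without FVB replicate 1 and 16 without HSALR replicate 2. Mustn1, an activator of muscle growth and repair, had 560.0, 780.2, 509.8 and 498 TPM in HSALR libraries 1 to 4, against 62.3, 67.9, 81.3 and 58.5 TPM in FVB libraries 1 to 4 (log2 difference 3.09 ± 0.18 SE, adjusted p = 3.3e-10). Every HSALR library exceeded every FVB library several-fold. Csrp3, the muscle LIM protein that senses stretch at the Z-disc, had 419, 2605, 889 and 352 TPM in HSALR libraries 1 to 4, against 44.4, 59.8, 94.1 and 15.9 TPM in FVB libraries 1 to 4 (log2 difference 4.06 ± 0.62 SE, adjusted p = 0.000126). HSALR replicate 2 was by far the highest, and the other 3 were also above all FVB libraries. Ankrd1, an ankyrin repeat protein of the titin spring, had 73.3, 206.5, 69.5 and 70.2 TPM in HSALR libraries 1 to 4, against 8.28, 4.54, 4.74 and 7.39 TPM in FVB libraries 1 to 4 (log2 difference 3.73 ± 0.52 SE, adjusted p = 4.28e-05). Here too the groups were apart and HSALR replicate 2 was far above the next library. Flnc, filamin C, which repairs torn myofibrils, averaged 1439.5 ± 295 TPM in HSALR and 344 ± 51.1 TPM in FVB quadriceps (SD, n = 4; log2 difference 2.05 ± 0.16 SE, adjusted p = 3.43e-08). The small heat shock proteins Hspb7 (1109.9 ± 376 TPM in HSALR and 162 ± 82.5 TPM in FVB quadriceps; adjusted p = 6.35e-06) and Hspb1 (2143 ± 706 TPM in HSALR and 504 ± 72.9 TPM in FVB quadriceps; adjusted p = 2.68e-05) rose with it, as did Tnfrsf12a, the receptor of the cytokine TWEAK (167 ± 56.6 TPM in HSALR and 21 ± 2.86 TPM in FVB quadriceps; adjusted p = 3.28e-06; SD, n = 4 each). Fhl1, Lmcd1 and Xirp1, LIM and actin-binding proteins of the sarcomere, rose by 2.66, 2.22 and 1.37 on the log2 scale (adjusted p = 0.000145, 2.81e-05 and 0.000807). Ankrd2 overlapped between groups, and its call (adjusted p = 0.0443) ended without any 1 of HSALR replicates 2, 3 and 4 or FVB replicates 1, 2 and 4 (adjusted p 0.0509 to 0.148) or in the 8 libraries alone (adjusted p = 0.118).

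Genes of calcium handling were called in part. Of 31 genes of calcium release and uptake, 6 rose and 1 fell, with a median of -0.02. Sln, sarcolipin, a small peptide that slows the calcium pump, had 190.1, 181, 118 and 251 TPM in HSALR libraries 1 to 4, against 12.9, 3.82, 19.1 and 2.71 TPM in FVB libraries 1 to 4 (log2 difference 4.42 ± 0.51 SE, adjusted p = 4.82e-06). Each HSALR library was above each FVB library, though the FVB levels spread from 2.71 to 19.1 TPM. Srl, a calcium-binding protein of the sarcoplasmic reticulum (log2 difference 0.37 ± 0.09 SE, adjusted p = 0.00816), and Jsrp1, which couples the voltage sensor to the release channel (log2 difference 0.42 ± 0.06 SE, adjusted p = 8.92e-05), rose by less and without overlap. Cacng1, a subunit of the voltage sensor, rose (log2 difference 0.62 ± 0.16 SE, adjusted p = 0.0123), but not without HSALR replicate 4 (adjusted p = 0.053) or in the 8 libraries alone (adjusted p = 0.0644). Atp2a1 RNA averaged 20532 ± 3656 TPM in HSALR and 23852 ± 2927 TPM in FVB quadriceps (SD, n = 4; adjusted p = 0.172), so only its splicing passed the test. Without FVB replicate 1, 5 members of the list rose and 4 fell, and without HSALR replicate 2, 4 rose and 0 fell.

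Ion channels of the surface membrane moved in both directions, with 4 of 24 higher and 6 lower and a median of 0.02. The counts were 4 higher and 6 lower without FVB replicate 1, and 4 higher and 7 lower without HSALR replicate 2. Kcnab1, a subunit of potassium channels, fell the most. Its level was 2.56, 1.03, 1.66 and 1.71 TPM in HSALR libraries 1 to 4, against 22.5, 28.8, 28.9 and 24.1 TPM in FVB libraries 1 to 4 (log2 difference -3.32 ± 0.22 SE, adjusted p = 2.4e-09), and all HSALR libraries lay about an order of magnitude below all FVB libraries. The sodium channel of muscle, Scn4a (-0.35 ± 0.07, adjusted p = 0.00128) and its subunit Scn4b (-0.43 ± 0.10, adjusted p = 0.00387) fell, as did Clcn1, though Scn4a did not pass in the 8 libraries alone (adjusted p = 0.0506). Kcnn3, a calcium-activated potassium channel of denervated muscle, rose. It had 6.63, 11.6, 8.38 and 6.74 TPM in HSALR libraries 1 to 4, against 1.33, 1.49, 2.09 and 1.31 TPM in FVB libraries 1 to 4 (log2 difference 1.85 ± 0.32 SE, adjusted p = 0.000522), again without overlap. Fxyd1, a regulator of the sodium pump, rose slightly (0.39 ± 0.07, adjusted p = 0.000311). In these and later brackets, values before an adjusted p are log2 differences ± SE.

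Genes of the neuromuscular synapse and of denervation rose in 7 of 21 cases and fell in 0, with a median of 0.26. Leaving out FVB replicate 1 left 7 that rose, and leaving out HSALR replicate 2 left 6. They were Musk, the receptor that builds the synapse (47.1 ± 10.4 TPM in HSALR and 22.6 ± 7.67 TPM in FVB quadriceps; adjusted p = 0.0026), its partners Dok7 (17.8 ± 3.97 TPM in HSALR and 11.2 ± 1.66 TPM in FVB quadriceps; adjusted p = 0.00327) and Lrp4 (13.4 ± 2.62 TPM in HSALR and 8.99 ± 0.460 TPM in FVB quadriceps; adjusted p = 0.00769), the adhesion molecule Ncam1 (29.6 ± 13.7 TPM in HSALR and 9.71 ± 1.08 TPM in FVB quadriceps; adjusted p = 0.00103), the transcription factor Runx1 (9.19 ± 2.95 TPM in HSALR and 2.37 ± 0.666 TPM in FVB quadriceps; adjusted p = 0.000268; SD, n = 4 each), Kcnn3 and Chrnb1, a subunit of the acetylcholine receptor. The call of Chrnb1 (adjusted p = 0.0177) ended without HSALR replicate 2 or FVB replicate 3 (adjusted p = 0.0637 and 0.0626). In the 8 libraries alone Dok7 and Lrp4 did not pass (adjusted p = 0.0652 and 0.0539). HSALR replicate 2 was the highest library for Musk, Ncam1 and Runx1. Of 17 myogenic genes 6 rose and 1 fell, with a median of 0.44, and the fall was Actc1. With either FVB replicate 1 or HSALR replicate 2 left out, 5 rose and 1 fell. Myod1, the master regulator of muscle identity, averaged 58.5 ± 7.59 TPM in HSALR and 26.1 ± 8.31 TPM in FVB quadriceps (1.17 ± 0.25, adjusted p = 0.00327), and Myh8, the perinatal myosin, 7.43 ± 4.42 TPM in HSALR and 1.78 ± 0.310 TPM in FVB quadriceps (1.48 ± 0.34, adjusted p = 0.00537; SD, n = 4 each). The myogenic factor Myf6 rose by 0.54 on the log2 scale (adjusted p = 0.00862).

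In the sarcomere and Z-disc list, 11 of 37 members rose and 6 fell, with a median of 0.13. Pdlim7, a LIM protein of the actin cytoskeleton, fell. It had 171, 193, 171 and 166 TPM in HSALR libraries 1 to 4, against 499, 499, 488 and 580.4 TPM in FVB libraries 1 to 4 (log2 difference -1.55 ± 0.08 SE, adjusted p = 1.12e-10), with tight groups and no overlap. Its relative Pdlim3 rose (1.07 ± 0.18, adjusted p = 0.000337). Tpm2, beta-tropomyosin, rose and averaged 3096 ± 311 TPM in HSALR and 1605 ± 458 TPM in FVB quadriceps (0.99 ± 0.20, adjusted p = 0.0019), while Tpm1, alpha-tropomyosin, fell and averaged 12125 ± 2335 TPM in HSALR and 19339.9 ± 1764 TPM in FVB quadriceps (-0.69 ± 0.14, adjusted p = 0.00166). Tnnt3 RNA fell together with its change in splicing and averaged 15131 ± 1329 TPM in HSALR and 25046 ± 3389 TPM in FVB quadriceps (-0.72 ± 0.10, adjusted p = 6.35e-05; SD, n = 4 each). Neb and Ttn RNA did not pass the test (adjusted p = 0.818 and 0.852). Without FVB replicate 1, 7 members rose and 7 fell, and without HSALR replicate 2, 8 rose and 4 fell.

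Genes of fast glycolytic fibres fell more often than they rose. Of 20 tested, 7 fell and 1 rose, with a median of -0.36; 7 fell and 1 rose without FVB replicate 1, and 5 fell and 1 rose without HSALR replicate 2. The exception was Myh1, the myosin of type 2X fibres, which had 5874, 8875, 7415 and 5349 TPM in HSALR libraries 1 to 4, against 2360.3, 2729, 3059.7 and 1591 TPM in FVB libraries 1 to 4 (log2 difference 1.51 ± 0.29 SE, adjusted p = 0.00127). All HSALR libraries were above all FVB libraries. Myh4, the myosin of type 2B fibres, had 17703, 6455, 15883 and 19119 TPM in HSALR libraries 1 to 4, against 20949, 25290.2, 21125 and 28303 TPM in FVB libraries 1 to 4 (log2 difference -0.80 ± 0.24 SE, adjusted p = 0.0294). The groups did not overlap, but HSALR replicate 2 was far below the rest and the call ended without it (log2 difference -0.44, adjusted p = 0.0675), without FVB replicate 2 (adjusted p = 0.0653) and without FVB replicate 4 (adjusted p = 0.0817). It also ended with no filter on low values (adjusted p = 0.0912) and in the 8 libraries alone (adjusted p = 0.211). Ckm, the creatine kinase of muscle, fell (-0.46 ± 0.11, adjusted p = 0.00512; adjusted p = 0.214 with no filter on low values), as did Gpd1, a glycerol phosphate dehydrogenase (-1.17 ± 0.25, adjusted p = 0.00257). Gpd1 is also a gene of fat, and FVB replicate 1 held the most of it, at 1289 TPM. Of 17 genes of slow fibres 4 rose and 0 fell, with a median of -0.37, and 3 rose and 0 fell without FVB replicate 1 or without HSALR replicate 2. The calls and the median thus differ in sign. Those that rose were Mb, myoglobin, and Csrp3, Ankrd2 and Fhl1, which also stand in the load list. Ckm, Gpd1 and Mb did not pass in the 8 libraries alone (adjusted p = 0.0918, 0.0772 and 0.0803). The slow myosin Myh7 and the slow troponins Tnnt1, Tnni1 and Tnnc1 were not called. Slow-fibre RNA summed to 9144.8 to 25021 TPM in HSALR and 3022 to 13648 TPM in FVB libraries, highest in HSALR replicate 2 and in FVB replicate 3, and its part in these differences was not tested.

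Metabolic genes changed in part. Of 33 genes of glycolysis and glycogen 7 fell and 3 rose, with a median of -0.19. Pfkfb3, which makes the activator of phosphofructokinase, fell. Its level was 42.9, 40.6, 22.7 and 70.2 TPM in HSALR libraries 1 to 4, against 305, 177, 179 and 153 TPM in FVB libraries 1 to 4 (log2 difference -2.23 ± 0.37 SE, adjusted p = 0.000323), and no HSALR library reached the lowest FVB library. Phkb, a subunit of the same kinase as Phka1, fell (-0.45 ± 0.11, adjusted p = 0.00702), while Gys1, glycogen synthase, rose (0.43 ± 0.09, adjusted p = 0.00248), as did the hexokinase Hk2 (0.44 ± 0.11, adjusted p = 0.0113). Without FVB replicate 1, 7 members fell and 3 rose, and without HSALR replicate 2, 4 fell and 3 rose. Of 25 genes of fatty acid use 1 rose and 0 fell, with a median of -0.30. That gene was Ppard, a nuclear receptor of fat burning (0.30 ± 0.09, adjusted p = 0.0337), and 0 were called without HSALR replicate 2. Its call also ended without HSALR replicate 4 or FVB replicate 3 (adjusted p = 0.0857 and 0.12). Ppp1r3b, which targets a phosphatase to glycogen, and the lipid enzyme Scd1 were among the largest falls, and both were highest in FVB replicate 1. In the 8 libraries alone Hk2, Phkb, Ppard, Ppp1r3b and Scd1 did not pass (adjusted p = 0.0893, 0.0893, 0.112, 0.0897 and 0.0574). Scd1 had 59.5, 122, 32.4 and 47.5 TPM in HSALR libraries 1 to 4, against 1385, 269.7, 132 and 380.0 TPM in FVB libraries 1 to 4, and its call (adjusted p = 0.0143) ended without that library (log2 difference -2.02, adjusted p = 0.0543). Of 12 markers of fat cells 4 were lower in HSALR and 0 higher, with a median of -2.05; 1 was lower without FVB replicate 1 and 11 without HSALR replicate 2, and their part in the metabolic genes was not tested.

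Stress pathways were called in part. Of 16 targets of p53, 3 rose and 0 fell, with a median of 0.21, and 3 rose without FVB replicate 1 and 2 without HSALR replicate 2. Eda2r, a receptor of the tumour necrosis factor family, had 71.7, 49.3, 52.9 and 93.5 TPM in HSALR libraries 1 to 4, against 5.48, 5.42, 7.17 and 3.39 TPM in FVB libraries 1 to 4 (log2 difference 3.40 ± 0.28 SE, adjusted p = 5.5e-08). Phlda3, an inhibitor of the kinase AKT, had 106, 162, 119 and 122 TPM in HSALR libraries 1 to 4, against 51.2, 28.3, 28.4 and 21.1 TPM in FVB libraries 1 to 4 (log2 difference 2.00 ± 0.24 SE, adjusted p = 9.27e-06). In both genes the groups were well apart. The third was Zmat3, whose call ended without HSALR replicate 2 (adjusted p = 0.0714) and in the 8 libraries alone (adjusted p = 0.0963). Of 21 genes of the unfolded protein and integrated stress responses 4 rose and 1 fell, with a median of 0.29. The chaperone Hspa5 (0.57 ± 0.11, adjusted p = 0.00125), Sdf2l1 (1.43 ± 0.19, adjusted p = 2.95e-05) and the secreted factor Manf (0.97 ± 0.17, adjusted p = 0.000522) rose, and Chac1, which degrades glutathione, fell (-1.38 ± 0.35, adjusted p = 0.0101). Without FVB replicate 1, 8 rose and 1 fell, and without HSALR replicate 2, 4 rose and 2 fell. Among 22 genes of atrophy and protein turnover 3 rose and 2 fell, with a median of 0.04; 2 rose and 1 fell without FVB replicate 1, and 2 rose and 2 fell without HSALR replicate 2. Uchl1, a deubiquitinase better known from neurons, had 37.9, 45.4, 21.2 and 36.4 TPM in HSALR libraries 1 to 4, against 3.76, 3.14, 4.29 and 0.865 TPM in FVB libraries 1 to 4 (log2 difference 3.23 ± 0.26 SE, adjusted p = 5.5e-08), and Mstn, myostatin, the brake on muscle growth, fell and averaged 44.6 ± 4.29 TPM in HSALR and 75.1 ± 19.6 TPM in FVB quadriceps (-0.71 ± 0.15, adjusted p = 0.00321; SD, n = 4).

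Of 29 tested splicing regulators 3 rose and 4 fell, with a median of -0.05, and 3 rose and 3 fell without HSALR replicate 2. Celf1, a factor that opposes MBNL at several exons, rose slightly in RNA level, at 56, 63.9, 54.1 and 56.4 TPM in HSALR libraries 1 to 4, against 49.2, 46.5, 50.8 and 47.7 TPM in FVB libraries 1 to 4 (log2 difference 0.24 ± 0.06 SE, adjusted p = 0.00757), with no overlap. Its call was lost in the 8 libraries alone (adjusted p = 0.088), as was that of Rbfox1 below (adjusted p = 0.0636). Celf2, of the same family, fell and averaged 24.9 ± 1.57 TPM in HSALR and 43.2 ± 4.08 TPM in FVB quadriceps (-0.77 ± 0.08, adjusted p = 2.55e-06). The SR proteins Srsf5 (-0.74 ± 0.14, adjusted p = 0.00125) and Srsf6 (-0.55 ± 0.12, adjusted p = 0.0026) fell, and Rbm38 (0.46 ± 0.10, adjusted p = 0.00321) and Hnrnpa1 (0.34 ± 0.07, adjusted p = 0.00255) rose. Rbfox1, a factor of muscle and brain, fell (-0.36 ± 0.11, adjusted p = 0.0304), a call that ended without any 1 of HSALR replicates 1, 2 and 4 or FVB replicates 2 and 4 (adjusted p 0.0528 to 0.0946) or with TPM rescaled by library medians (adjusted p = 0.0682).

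**Figure D4:**
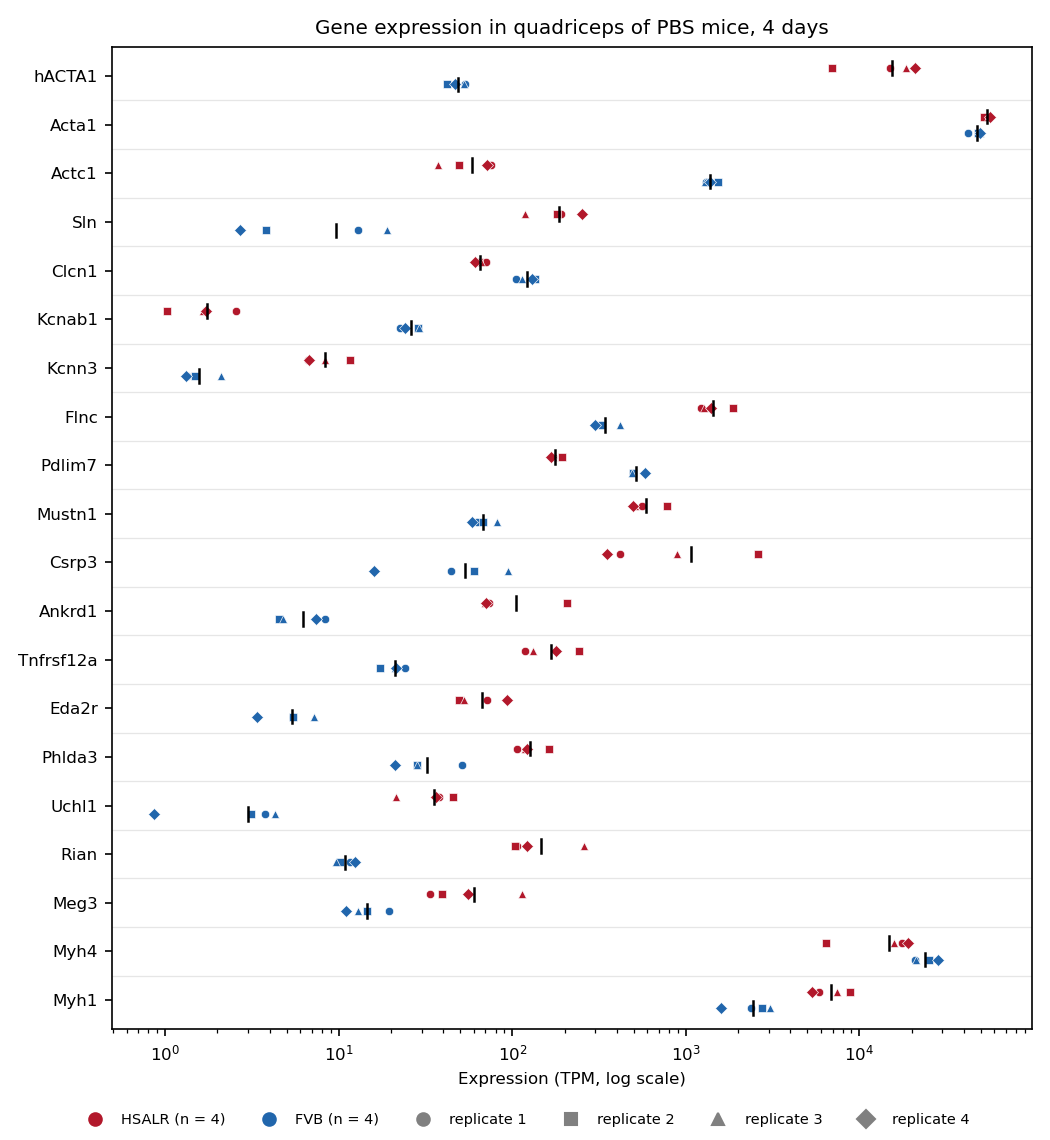
Expression (TPM, log scale on the horizontal axis) of 20 genes in each of the 4 HSALR (red, upper line of a row) and 4 FVB (blue, lower line) quadriceps libraries. Black bars are group means and marker shapes are replicate numbers. Rows were picked from genes named in the text, many of which were named only if their groups did not overlap. No row overlaps between groups, against 15.7% of all tested genes without overlap. HSALR replicate 2 (red square) is lowest for hACTA1 and Myh4 and highest for Csrp3 and Ankrd1.

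RNAs of the imprinted Dlk1-Dio3 region on chromosome 12 (chr12:109452485-110281097, GRCm38.p6), which come from the maternal chromosome and host a large cluster of microRNAs, were called in 13 of 52 tested entries, all higher. Rian had 106, 103, 258 and 122 TPM in HSALR libraries 1 to 4, against 11.5, 10.1, 9.63 and 12.3 TPM in FVB libraries 1 to 4 (log2 difference 3.53 ± 0.30 SE, adjusted p = 9.79e-08), and Meg3 had 33.5, 39.2, 114 and 55.3 TPM in HSALR libraries 1 to 4, against 19.5, 14.5, 13 and 11 TPM in FVB libraries 1 to 4 (log2 difference 1.85 ± 0.32 SE, adjusted p = 0.000414). HSALR replicate 3 was the highest for both, and no library overlapped with the other group. Mirg, the third long RNA, averaged 11.5 ± 6.33 TPM in HSALR and 0.814 ± 0.378 TPM in FVB quadriceps (2.68 ± 0.33, adjusted p = 1.08e-05; SD, n = 4). The protein-coding genes of the region, Dlk1, Rtl1 and Dio3, were below the minimum level. Of the 52 entries 0 fell, 50 had a difference above 0 and the median was 1.74. Entries were tested where their mean level over all libraries of the fit, most of them HSALR, reached the minimum. An entry at 0 in FVB could thus pass more easily than an entry at 0 in HSALR. The direction of these counts may depend in part on this filter, which was not tested. MicroRNA entries elsewhere in the genome, which passed the same filter, numbered 311, of which 2 rose and 6 fell, with a median of -0.21. This region was singled out after its values were seen. Mir541 had 13.2, 8.15, 12.5 and 11.2 TPM in HSALR libraries 1 to 4 and was listed at 0 in all FVB libraries, and Mir341 had 22.5, 31.2, 58.1 and 48.7 TPM in HSALR libraries 1 to 4, against 0, 4.16, 0 and 4.93 TPM in FVB libraries 1 to 4 (log2 difference 4.04 ± 0.83 SE, adjusted p = 0.00213). These entries are precursor genes in libraries that do not select small RNA, and reads of the long host RNAs may fall on them, so mature microRNAs were not measured. Their mature products in RefSeq (GRCm38.p6; all 8 microRNA entries among the largest changes were matched) carry these seeds, bases 2 to 8, in capitals.
miR-541-5p: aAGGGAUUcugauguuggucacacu
miR-541-3p: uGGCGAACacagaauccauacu
miR-341-5p: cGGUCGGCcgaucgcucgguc
miR-341-3p: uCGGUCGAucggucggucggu
No seed is shared between the 4 products. Mir541 lies at chr12:109742422-109742487 and Mir341 at chr12:109611521-109611576, from the first to the last base of their mature products, both on the plus strand.

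Other genes among the 15 largest rises were Myo1a, a myosin known from the gut lining (17.2 ± 5.01 TPM in HSALR and 0.321 ± 0.182 TPM in FVB quadriceps; 3.76 ± 0.26, adjusted p = 4.93e-09), and 1700011I03Rik (19.5 ± 4.52 TPM in HSALR and 0.361 ± 0.248 TPM in FVB quadriceps; 3.90 ± 0.29, adjusted p = 1.47e-08; SD, n = 4 each). Both were near 0 in FVB and well above it in every HSALR library. Another large fall was C130080G10Rik (0.182 ± 0.0556 TPM in HSALR and 5.67 ± 0.906 TPM in FVB quadriceps; -2.49 ± 0.15, adjusted p = 4.32e-10; SD, n = 4). Nr4a2, a nuclear receptor induced by stimuli, had 7.15, 1.95, 2.53 and 2.43 TPM in HSALR libraries 1 to 4, against 11.4, 13.4, 21.9 and 8.17 TPM in FVB libraries 1 to 4 (log2 difference -1.75 ± 0.45 SE, adjusted p = 0.0114), and Gm4841 averaged 15.8 ± 6.86 TPM in HSALR and 59.4 ± 18.2 TPM in FVB quadriceps (-1.88 ± 0.33, adjusted p = 0.000562; SD, n = 4). Lep, the hormone leptin of fat cells, had 0.631, 1.55, 0.153 and 0.450 TPM in HSALR libraries 1 to 4, against 19.6, 2.96, 2.06 and 5.07 TPM in FVB libraries 1 to 4 (log2 difference -1.94 ± 0.43 SE, adjusted p = 0.00402), and Mmd had 8.77, 15.9, 5.16 and 7.54 TPM in HSALR libraries 1 to 4, against 91.4, 22.7, 19.4 and 25 TPM in FVB libraries 1 to 4 (log2 difference -1.77 ± 0.38 SE, adjusted p = 0.00331). FVB replicate 1, with the most fat RNA, was far above the other libraries for both, and neither passed in the 8 libraries alone (adjusted p = 0.0853 and 0.0778). The histone genes Hist2h3c1 and Hist2h3c2 were called in opposite directions, but they are near-identical copies whose reads can be split, so neither is certain. The call of Hist2h3c1 ended without any 1 of the 4 HSALR libraries or FVB replicates 2 and 3 (adjusted p 0.0765 to 0.14), or in the 8 libraries alone (adjusted p = 0.0855). The microRNA entries Mir6369, Mir7079 and Mir7063 were listed at 0 in some HSALR libraries, and their calls ended without single libraries (HSALR replicates 1, 3 or 4 for Mir6369, HSALR replicates 1 or 4 or FVB replicate 3 for Mir7079, and all but HSALR replicate 2 and FVB replicates 1 and 4 for Mir7063, adjusted p 0.0568 to 0.102). Mir7063 did not pass in the 8 libraries alone either (adjusted p = 0.0689).

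Other cell types of muscle gave few calls. Of 20 genes of collagens and matrix 0 were called in limma and 1 had an unadjusted p under 0.05. Likewise 0 of 13 markers of endothelium, 0 of 12 of fibroblasts, 0 of 10 of Schwann cells and 0 of 8 of tendon passed, while 3, 0, 2 and 0 had an unadjusted p under 0.05. Of 5 markers of brown fat 0 passed and 2 had such an unadjusted p. Of 3 tested markers of red blood cells and 2 of neutrophils 0 passed, and 0 had such an unadjusted p. Of 11 markers of smooth muscle and pericytes 1 rose, Des, which muscle fibres also make (adjusted p = 0.00697, and 0.057 in the 8 libraries alone), and 1 fell. Of 13 markers of macrophages 1 rose, Cd68, and the markers summed to 105 to 219.8 TPM in HSALR and 61.1 to 271 TPM in FVB libraries. Markers of lymphocytes were near 0, at 2.75 to 4.17 TPM in HSALR and 2.15 to 7.61 TPM in FVB libraries. Among 17 clock genes 2 fell and 0 rose, with a median of -0.14, and among 18 immediate early and heat shock genes 2 fell and 0 rose, with a median of -0.73.

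**Figure D5:**
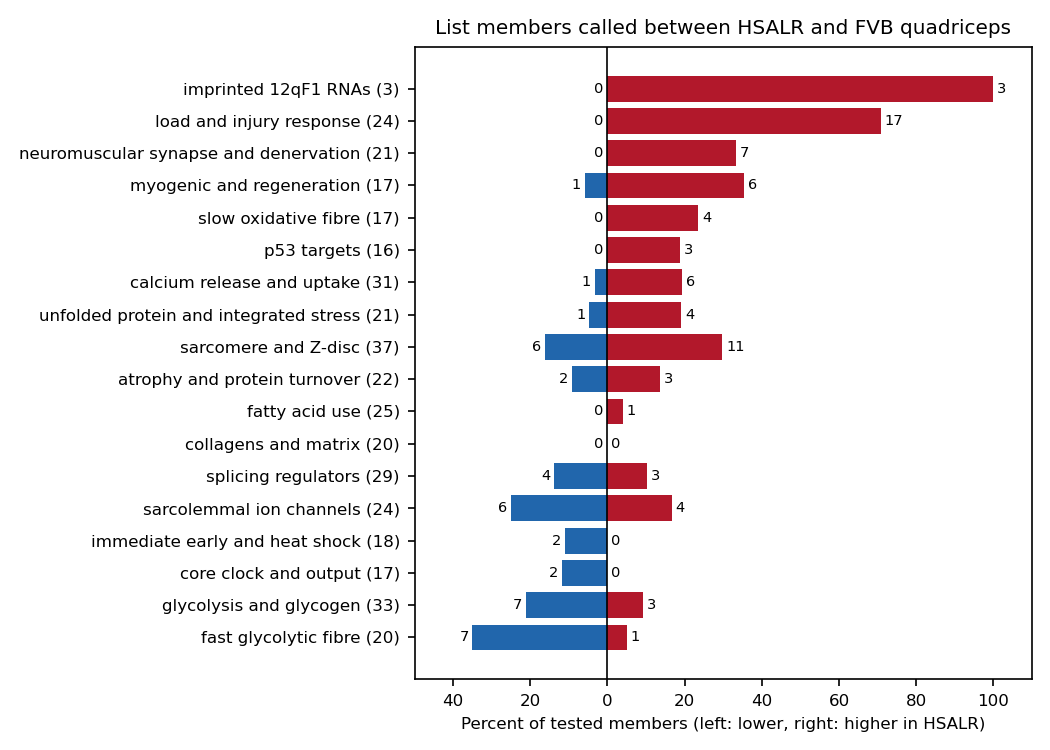
Percent of the tested members of each gene list (number tested in brackets) that were lower (blue, left of 0) or higher (red, right of 0) in HSALR quadriceps; numbers beside the bars are genes. The list of load and injury response has 17 higher and 0 lower of 24, and the list of fast glycolytic fibres 1 higher and 7 lower of 20. Over all tested genes 7.79% were higher and 5.95% lower. The lists were chosen with earlier results of these data known, so the bars are descriptions and no test.

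The plot of gene lists sets these counts side by side. Genes could carry both kinds of change. Of 112 genes with a called event and a tested level, 43 were also called in expression (38.4%), 25 higher and 18 lower in HSALR. Of all 8238 genes with a tested event 1262 were called (15.3%). Clcn1 and Tnnt3, described above, were lower in level and changed in splicing, while Atp2a1, Mbnl1, Neb and Ttn were called in splicing alone.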

How the data were processed

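RNA-seq libraries were made from muscle RNA after removal of ribosomal RNA with a strand-specific kit, per the labels' protocols. The TPM values were computed by the authors per gene entry (24526 entries used, of 24528; 2 reporter entries without values were left out), and the PSI values, the fraction of transcripts that include an exon, come from the authors' deposited rMATS table of 117460 events and a smaller deposited table of 36 exons. STAR, kallisto, cutadapt and the builds GRCm38 and mm10 are named in the submitters' processing notes, without versions. Read and junction counts were not used here, and the depth of each value is unknown.

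Samples were grouped by their titles. Genes with a mean of at least 1 TPM over the 24 quadriceps time-course libraries (FVB with PBS, HSALR with PBS, and HSALR with EEV4-PMO, an antisense conjugate, at 15 mg/kg and 4 times) were fitted as log2(TPM + 1), and events with a value in all 24 as linear PSI, with limma 3.58.1 in R 4.3.3, 1 coefficient per group, a trend in the prior variance and two-sided Benjamini-Hochberg adjusted p-values. Scripts were tested on simulated data. In a mutually exclusive pair, PSI is the share of the exon that comes first in the transcript. The difference between muscles was an interaction term over the 16 PBS libraries of both muscles at 4 days. The 36 exons were compared with exact permutation tests. Sensitivity to the libraries, block, filter, pseudocount, scaling, prior and call rule was computed.

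Named were the 15 largest rises and 15 largest falls among called genes, and among called events with 1 event per gene, whose groups do not overlap, members of the gene lists, the 36 exons and events of Atp2a1, Clcn1, Mbnl1, Mbnl2, Ldb3, Camk2b, Tnnt3, Ryr1, Cacna1s, Neb, Ttn and Nfix. A few further exons of these genes and the region on chromosome 12 were chosen after their values were seen. A few items that the rule names are not reported here. The libraries and all lists were chosen with earlier results of these data known.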

Additional observations from a re-analysis of the deposited data

Results flagged for a closer look

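A library was singled out where its gap to the nearest of the other 3 libraries of its group took up more of the range of the group than Dixon's critical value for 4 samples. This happened in 36 of 345 groups of 4 values checked (10.4%). The critical value gives about 1 in 20 by chance only for independent, normally distributed values. The groups checked come from the same libraries, and some exons are counted in both splicing tables. The share found is therefore a description and no test. HSALR replicate 2 was the library in 17 cases, FVB replicate 3 in 7, FVB replicate 4 in 5, and HSALR replicate 1, HSALR replicates 3 and 4 and FVB replicate 1 in 1 or 2 each.

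HSALR replicate 2 stood above the rest of its group in the level of Ankrd1, at 206.5 TPM (others 69.5 to 73.3), of the Z-disc actinin Actn2, at 2515 TPM (others 1446 to 1580.3), of Hk2, at 274 TPM (others 212 to 218), and of Ppp1r3b, at 2.60 TPM (others 0.834 to 0.958). Its levels of Mir6369, at 10.01 TPM (others 0), and Mir7063, at 4.18 TPM (others 0), were also higher. It stood below the rest in Myh4, at 6455 TPM (others 15883 to 19119), Ryr1, at 1207 TPM (others 1551 to 1597), and Pkm, at 2142 TPM (others 2527 to 2596). Levels of the glycogen gene Phkg1, at 206 TPM (others 339.9 to 369), and Gpd1, at 196 TPM (others 368 to 404), were low in it too.

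In exon inclusion the same library was closer to FVB at Ldb3, with a PSI of 0.583 (others 0.781 to 0.791), Socs7, at 0.507 (others 0.835 to 0.888), and Cog1, at 0.579 (others 0.331 to 0.347). At the exclusive pair of Neb it was farther from FVB, at 0.018 (others 0.098 to 0.113). In the authors' table it stood apart at Ldb3, at 0.593 (others 0.781 to 0.796), and Kif13a, at 0.793 (others 0.604 to 0.621). Other HSALR libraries stood apart at the exclusive pair of Meg3 (replicate 3), at 0.927 (others 0.857 to 0.864), at Phka1 (replicate 1), at 0.142 (others 0.113 to 0.117), at Fn1 in the authors' table (replicate 3), at 0.099 (others 0.073 to 0.077), and, both in replicate 4, in the level of Gys1, at 378 TPM (others 407 to 412), and Hist2h3c2, at 2.92 TPM (others at most 0.0606).

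FVB replicate 3 stood apart at the exclusive pair of Tnnt3, at 0.934 (others 0.982 to 0.984), and at Rapgef1, at 0.772 (others 0.526 to 0.554). In the authors' table it stood apart at Rapgef1, at 0.722 (others 0.53 to 0.561), Best3, at 0.606 (others 0.872 to 0.925), and Trappc9, at 1 (others 0.498 to 0.568), and in expression in Ppard, at 17.5 TPM (others 21.4 to 22.1), and Mir493, at 20.9 TPM (others 0). FVB replicate 4 stood apart at the exclusive pair of Meg3, at 0.39 (others 0 to 0.019), and in the authors' table at Cpeb2, at 0.074 (others 0.336 to 0.364), and Map3k4, at 0.089 (others 0.157 to 0.158). Its levels of Pdlim7, at 580.4 TPM (others 488 to 499), and Lrp4, at 8.31 TPM (others 9.14 to 9.32), stood apart too. FVB replicate 1 had more Mmd RNA, at 91.4 TPM (others 19.4 to 25), and less Srl RNA, at 746 TPM (others 913 to 918).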

How the results depend on the processing

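Of 13177 genes 1811 were called, and 845 in a fit of the 8 libraries alone, 275 where a log2 change of at least 1 was also required, and 1385 to 1770 without 1 library; the share higher in HSALR was 56.7% in all and ran from 48.7% without HSALR replicate 2 to 68.5% without FVB replicate 1. Of 55181 events 248 were called. Separate fits called 65 of 56623 events in the 8 libraries alone and 63 of 64950 there with missing values allowed. Without 1 library 195 to 268 events were called. The other settings of both counts stayed within 1.5 times. Replicate numbers did not pair HSALR with FVB libraries (correlations of deviations -0.17 to 0.00877); a replicate block gave 1705 genes and 246 events, and in the 8 libraries alone 263 genes and 4 events. Leaving out events constant in the 24 libraries, a setting chosen after seeing the data, gave 259.

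For the difference between muscles, limma called 0 genes and 0 events. Same-numbered libraries of the 2 muscles had correlations of 0.039 to 0.236 in HSALR and 0.09 to 0.164 in FVB mice, highest with their own number in 4 of 4 HSALR and 3 of 4 FVB libraries, a hint of pairing from the data and not from the labels. A block that treats same-numbered libraries of the 2 muscles within a genotype as taken from the same mouse called 3 genes and 0 events. The logit scale called 1 event, and leaving out a quadriceps library 0 to 1 genes and 0 to 2 events. Of 28 events named for their size, 10 held in the 8 libraries alone (Clcn1, Ldb3, Wdr59, Bpnt1, Nfix, Tnnt3, Neb, Atp2a1, Camk2b and Phka1), and 22 held without any single library. Of 102 named called genes, 67 held in the 8 alone and 80 without any single library. Uncalled levels turned sign in Ttn (log2 difference -0.0596 to 0.0348 without 1 library), Mbnl2 (-0.0579 to 0.0801), Cacna1s (-0.00566 to 0.103) and Neb (-0.00514 to 0.0842). Acta1 gained a call with no trend in the prior variance (adjusted p = 0.0344). The causes of these shifts were not tested. Depth is unknown, so no limit of detection can be given; exons of genes with few reads have coarse PSI values.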
